A study of Mus musculus with 17 samples.

Results

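The genes described are 10 of the 55335 genes in the count files: Eef1a1, Eef1b2, Eef1g, Eef2, Tpt1, Naca, Btf3, Pabpc1, Npm1 and Fau. They were chosen by name as translation genes whose mRNAs carry a 5′ terminal oligopyrimidine tract, and all 10 passed the filter on low counts in every fit. Earlier results of these data were known when these genes and the gene lists were chosen. Their counts against all genes are therefore descriptive and not an independent test. The data were bulk RNA sequencing of 2 stromal populations that were sorted from mouse bone as cells negative for the CD45, TER119 and CD31 antigens and positive for CD51. Skeletal stromal/stem cells (SSCs) were Sca-1-positive and PDGFRα-positive, and osteoprogenitor cells (OPCs) were Sca-1-negative. Each population came from WT (Cxcr4+/+), heterozygous (+/1013) and homozygous (1013/1013) mice, where 1013 is a knock-in allele of Cxcr4 that truncates the receptor's C-terminal tail and impairs its desensitization. Mice were female littermates of 8 to 12 weeks unless specified otherwise, and each library was a pool of 3 mice. Every group held 3 libraries except 1013/1013 SSCs, which held 2. No treatment is given in the labels, and the allele is carried by all cells of the animal, so a change in SSCs or OPCs cannot be assigned to the receptor on those cells.

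mRNAs of this class start with a C followed by a run of pyrimidines, and their translation is known to be switched on and off together with growth signals through mTORC1 and the RNA-binding protein LARP1. The class holds the ribosomal protein mRNAs and a smaller set that encodes elongation factors and other parts of the translation machinery. Eef1a1 encodes the factor that brings aminoacyl-tRNA to the ribosome, Eef1b2 and Eef1g encode subunits of its exchange factor, and Eef2 encodes the factor that moves the ribosome along the mRNA. Naca and Btf3 encode the subunits of the nascent polypeptide-associated complex, Pabpc1 the cytoplasmic poly(A)-binding protein, Npm1 a nucleolar chaperone of ribosome assembly and Tpt1 the translationally controlled tumour protein. Fau encodes a ubiquitin-like protein fused to a ribosomal protein of the small subunit, so the name non-ribosomal does not hold for that gene.

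The start of the transcript is what places these mRNAs in their class, and the genomic sequence around the annotated start is therefore shown for the 7 genes that have an entry in the RefSeq promoter set for GRCm38.p6. Each line gives the 30 bases centred on the start (15 before it and 15 from it onward, on the strand of the gene), with every C followed by at least 4 further C or T bases in capitals.
Eef1a1 (chr9:78481710-78481739, minus strand): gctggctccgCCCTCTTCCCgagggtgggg
Naca (chr10:128035331-128035360, plus strand): gcaactcgttCTCTTaaagaggaaacccgg
Btf3, first entry (chr13:98316953-98316982, minus strand): CCCTCTagctgccatcttgcgtccccgcgt
Fau (chr19:6057932-6057961, plus strand): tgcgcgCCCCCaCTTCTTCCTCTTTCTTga
Eef1b2 (chr1:63176816-63176845, plus strand): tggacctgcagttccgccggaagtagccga
Eef2 (chr10:81176616-81176645, plus strand): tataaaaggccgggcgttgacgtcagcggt
Tpt1 (chr14:75845241-75845270, plus strand): gtcaccgctgacgacagttccgggggagcc
The second Btf3 entry, at chr13:98316992-98317021, held no such tract, and Eef1g, Pabpc1 and Npm1 had no entry. A tract lay in 4 of the 8 windows of these genes, in 39 of 67 windows of ribosomal protein genes (58.2%) and in 36.4% of all 32851 windows, so its presence within 30 bases is common. The annotated start fell on the C of a tract in 2.51% of all windows, in 13 of the 67 ribosomal windows (19.4%) and, among these genes, in Fau. The tract of Fau was also the longest, with 16 bases. Annotated starts can lie away from the base where a transcript begins in these cells, and the counts do not locate it.

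In the GENCODE M21 annotation of mm10, Eef1a1 spans positions 78478449 to 78489151 of chromosome 9, Eef1b2 63176825 to 63180486 of chromosome 1, Eef1g 8967041 to 8978479 of chromosome 19 and Eef2 81176631 to 81182498 of chromosome 10. Tpt1 spans 75845093 to 75848525 of chromosome 14, Naca 128035575 to 128048637 of chromosome 10 and Btf3 98309896 to 98317006 of chromosome 13. Pabpc1 spans 36595661 to 36609668 of chromosome 15, Npm1 33152287 to 33163206 of chromosome 11 and Fau 6057844 to 6059524 of chromosome 19. Counts are per whole gene, and Eef1a1, Btf3, Pabpc1 and Npm1 lie on the minus strand. Their reference transcripts ran from 472 nt for Fau to 3089 nt for Eef2. Many of these genes have processed pseudogenes, and reads that match several genes can be lost or moved in counting. The share of a transcript's 50-base stretches that also occur in a transcript of another gene was 83.5% for Fau, 65.0% for Naca, 64.3% for Eef1g, 60.6% for Eef1a1 and 58.6% for Btf3. It was 42.0% for Tpt1, 40.9% for Npm1 and 20.7% for Pabpc1, and it was 7.9% for Eef2 and 6.0% for Eef1b2. Levels of the genes with high shares are therefore uncertain in absolute terms. Eef1b2 also overlaps Ndufs1 on the opposite strand, and Btf3 overlaps the long non-coding RNA Gm9828, so some reads there cannot be assigned without strand.

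The libraries held 64099849 to 92683497 gene counts in OPCs and 44217695 to 50509592 in SSCs. The sorting markers matched the labels: Ly6a, which encodes Sca-1, was 6.80 higher on the log2 scale in WT SSCs than in WT OPCs (SE 1.12, adjusted p = 0.00175 by edgeR's quasi-likelihood test), Pdgfra was 1.85 higher (adjusted p = 0.00120), and Itgav, which encodes CD51, differed by 0.19 (adjusted p = 0.741). Counts of Cxcr4, at 0.110 to 47.3 CPM (counts relative to the TMM-scaled library total), do not show the truncation. The summed level of 9 osteoblast marker genes, with Col1a1 and Col1a2 among them, was 176589 to 553374 CPM in OPCs and 9301 to 23283 in SSCs. That of 8 SSC marker genes was 185 to 527 in OPCs and 1772 to 5611 in SSCs. The summed level of 15 leukocyte markers, which the gates should have removed, ranged from 43.4 to 1029 CPM in 14 libraries and reached 26493 in OPC WT replicate 3, 18665 in OPC 1013/1013 replicate 2 and 10066 in SSC WT replicate 3. SSC WT libraries also had more genes with a count (21449 to 22599) than SSC mutant libraries (15748 to 19227) and more reads on no gene (3.68% to 4.15% against at most 2.69%).

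Together the 10 genes took 0.168% to 0.225% of the gene counts in SSC WT libraries and 0.328% to 0.406% in the SSC mutant libraries, which did not overlap. In OPCs they took 0.131% to 0.229% with no separation of the genotypes. In sorted pools, a difference in a gene's level per cell and a difference in the mix of cells cannot be told apart.

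**Figure D1:**
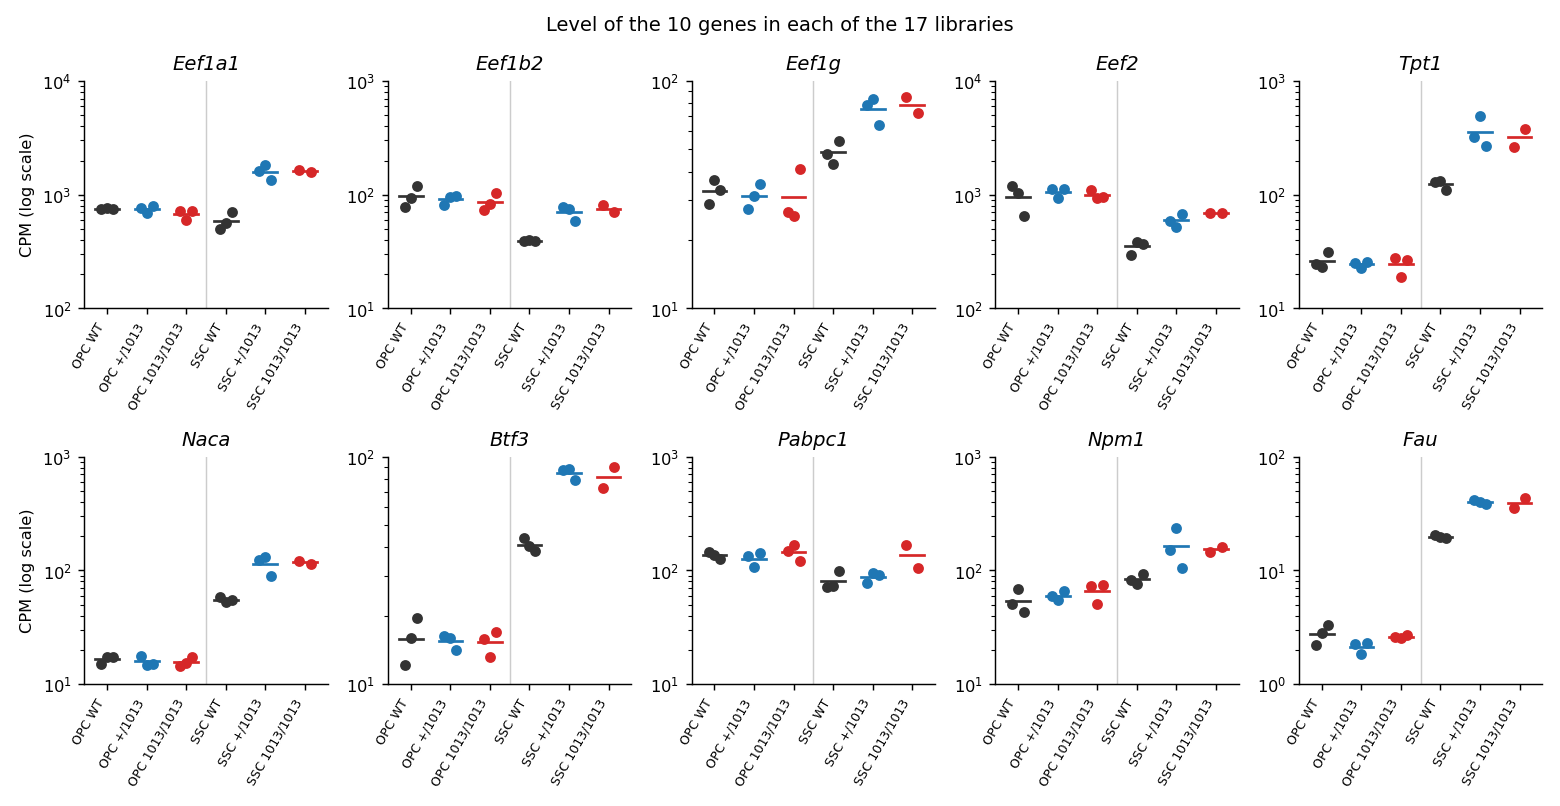
Level of each gene in CPM (log axis) in the 17 libraries, grouped by cell type and genotype. Points are libraries and lines are group means. Tpt1 reads 18.9 to 31.3 CPM in every OPC library and 110 to 488 in every SSC library.

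Per kilobase of transcript, Eef1a1 was the highest of the 10 genes in both populations, at a mean of 407 CPM per kb in OPCs and 680 in SSCs. In OPCs it was followed by Eef2 at 326, and the library ranges of the pair overlapped (334 to 447 against 210 to 384). The next were Pabpc1 at 48.4 and Eef1b2 at 47.3, which also overlapped, and Fau was lowest at 5.30, below every library of every other gene. In SSCs the order was different. Eef1a1 was followed by Tpt1 at 224 CPM per kb and Eef2 at 171, with overlapping ranges, while Eef1g (35.5), Pabpc1 (34.7) and Eef1b2 (31.0) were lowest and could not be ordered by their ranges. The SSC order depended on the genotype: in WT, Eef2 (114 CPM per kb) and Tpt1 (106) overlapped behind Eef1a1 (328), whereas in +/1013 Tpt1 (308) was above Eef2 (193) in every library, and in 1013/1013 they stood at 275 and 224.

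Levels in SSCs were higher in both mutant genotypes than in WT, by 1.5-fold or more in both for 9 of the 10 genes, but no member passed the test across all genes. Eef1a1 stood at 501, 564 and 702 CPM in the 3 WT libraries, at 1603, 1816 and 1339 in +/1013 and at 1635 and 1600 in 1013/1013. Its lowest mutant library was above its highest WT library. The log2 fold change was 1.40 in +/1013 (SE 0.22, adjusted p = 0.0740) and 1.47 in 1013/1013 (SE 0.24, adjusted p = 0.0810). All adjusted p-values here come from edgeR's quasi-likelihood test, corrected after Benjamini and Hochberg, unless another tool is named. Both comparisons share the WT libraries.

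Tpt1, the translationally controlled tumour protein gene, had the largest log2 fold change in +/1013. It was at 129, 132 and 110 CPM in WT SSCs, at 321, 488 and 270 in +/1013 and at 262 and 380 in 1013/1013. Again no mutant library reached down to the WT range, and the log2 fold changes were 1.52 (SE 0.26, adjusted p = 0.0912) and 1.39 (SE 0.28, adjusted p = 0.107).

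Among the other elongation factor genes, Eef2 stood at 298, 388 and 372 CPM in WT, at 584, 525 and 684 in +/1013 and at 690 and 693 in 1013/1013. Eef1b2 was nearly equal in the WT libraries, at 38.9, 39.8 and 39.1 CPM, and stood at 78.2, 74.2 and 59.1 in +/1013 and at 81.0 and 70.4 in 1013/1013. For both genes every mutant library was above every WT library. The log2 fold changes of Eef2 were 0.74 (SE 0.19) and 0.98 (SE 0.21), and those of Eef1b2 were 0.82 (SE 0.17) and 0.96 (SE 0.19). Eef1g, at 43.2 to 54.7 CPM in WT and 64.3 to 85.0 in the mutants, gave 0.61 (SE 0.19) and 0.71 (SE 0.20), with adjusted p of 0.185 and 0.164.

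The genes of the nascent polypeptide-associated complex had log2 fold changes near 1 in both mutants. Naca stood at 53.1 to 58.4 CPM in WT SSCs and at 88.7 to 130 in the mutants, with log2 fold changes of 1.02 (SE 0.19, adjusted p = 0.104) and 1.09 (SE 0.20, adjusted p = 0.0951). Btf3 stood at 38.4 to 43.9 CPM in WT and at 72.6 to 89.7 in the mutants, with 1.03 (SE 0.15, adjusted p = 0.0612) and 0.99 (SE 0.17, adjusted p = 0.0826). Fau, the ribosomal protein fusion, was at 20.5, 19.5 and 19.2 CPM in WT, at 41.3, 40.0 and 38.4 in +/1013 and at 35.3 and 43.4 in 1013/1013. Its groups did not overlap either, and the log2 fold changes were 1.00 (SE 0.17) and 1.01 (SE 0.18).

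Pabpc1 and Npm1 were less even. Npm1 was at 81.6, 75.8 and 92.9 CPM in WT SSCs, at 152, 236 and 106 in +/1013 and at 146 and 160 in 1013/1013, with log2 fold changes of 0.96 (SE 0.29) and 0.88 (SE 0.31). Pabpc1 was at 71.4, 72.9 and 99.8 CPM in WT, at 78.3, 95.9 and 91.0 in +/1013 and at 168 and 105 in 1013/1013. Its +/1013 libraries lay within the WT range, and the log2 fold change there was 0.09 (SE 0.25, 95% interval -0.39 to 0.58). In 1013/1013 it was 0.76 (SE 0.27, adjusted p = 0.215), and it ranged from 0.34 to 1.02 when a library was left out. Between the mutants Pabpc1 differed by 0.67 (95% interval 0.13 to 1.20, adjusted p = 0.788).

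In counts, 0 of the 10 genes passed an adjusted p under 0.05 with at least 1.5-fold change in +/1013 against WT SSCs, where 0.0680% of all 17659 genes passed as higher and 0.00566% as lower. In 1013/1013 against WT it was 0 of 10, where 0% of genes passed. In simulated data of the latter comparison, 1 of 100 genes changed 2-fold passed these thresholds. The simulated spread followed the trend over genes and few genes were changed. The simulation therefore does not give the rate at which these 10 genes would pass. At an unadjusted p under 0.05, 9 of 10 genes were higher in +/1013 (7.65% of all genes were higher and 9.68% lower) and 10 of 10 in 1013/1013 (8.37% and 9.89%) by edgeR's quasi-likelihood test. The mutant libraries were all above the WT libraries for 9 of 10 genes in +/1013 (15.0% of all genes, with 16.2% all below) and for 10 of 10 in 1013/1013 (16.4%, with 24.4% all below). Members had a median log2 fold change of 0.98 and 0.99, against -0.11 and -0.23 over every gene tested. DESeq2's Wald test called 7 of 10 as higher in each mutant, where it called 2.88% and 3.93% of all genes. In a fit of all 17 libraries edgeR called 5 of 10 in each, against 0.509% and 0.677% of all genes. With SSC 1013/1013 replicate 2 left out, which leaves that group with 1 library assumed to vary like the others, 5 of 10 passed in 1013/1013, where 3.50% of all genes were called higher and 11.3% lower. Without SSC WT replicate 3, the library with the high leukocyte markers, the members' median was 0.99 in each mutant, 0 of 10 passed, and Pabpc1 stood at 0.28 in +/1013. The share of all genes that passed in that fit is not given here.

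Other measures differed between the genotypes in the same SSC libraries. The summed level of the 9 osteoblast markers was 17943 to 23283 CPM in WT, 10486 to 12285 in +/1013 and 9301 to 14905 in 1013/1013, and that of the 8 SSC markers was 1772 to 2330, 3370 to 4657 and 2858 to 5611. For both lists every WT library lay outside the range of the mutant libraries. By gene, 7 of the 9 osteoblast markers were below and 2 above WT in each mutant, and 0 were called by edgeR. Of the 8 SSC markers, 7 were above and 1 below WT in each mutant, and 0 were called. Col1a1 and Col1a2, the collagen I genes, are part of the osteoblast sum, so their share is not a separate measure from it. They took 2.24% to 2.78% of the counts in WT and 0.563% to 1.17% in the mutants. Mitochondrially encoded genes took 0.127% to 0.403% in WT, 0.337% to 1.01% in +/1013 and 0.642% to 2.36% in 1013/1013. The 15 leukocyte markers summed to 294 to 10066 CPM in WT, 43.4 to 163 in +/1013 and 540 to 909 in 1013/1013. Of these markers 15 were below WT in the values in +/1013 and 13 in 1013/1013, with 13 and 3 at an unadjusted p under 0.05 and 0 called by edgeR. The part of these measures in the members' values was not tested.

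**Figure D2:**
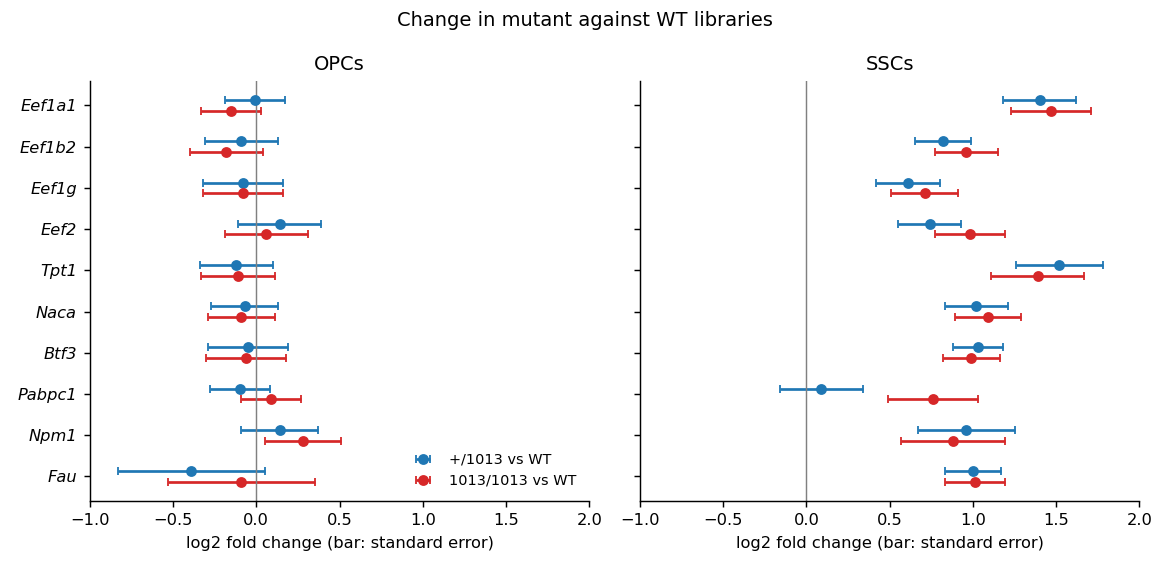
Log2 fold change of each gene in +/1013 (blue) and 1013/1013 (red) against WT, in OPCs and in SSCs. Bars are standard errors. In SSCs 9 of the 10 genes lie between 0.61 and 1.52 in both mutants and Pabpc1 lies at 0.09 in +/1013, and in OPCs the points lie between -0.39 and 0.28.

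Between the mutants, SSC levels were close. Log2 fold changes of 1013/1013 against +/1013 ran from -0.14 for Tpt1 to 0.67 for Pabpc1, with a median of 0.07, and 0 of 10 passed, as did 0% of all genes. At an unadjusted p under 0.05 by edgeR, Pabpc1 was the only member (2.53% of all genes were higher and 3.01% lower at that level). Both 1013/1013 libraries were above the 3 +/1013 libraries for Eef2 and Pabpc1, against 6.54% of all genes, and for 0 members all below (9.33%). The 95% intervals of the other 9 members include 0 and lie between -0.70 and 0.66, for example -0.42 to 0.54 for Eef1a1.

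In OPCs the genotypes did not separate. Eef1a1 stood at 755, 761 and 748 CPM in WT, at 764, 692 and 803 in +/1013 and at 723, 599 and 726 in 1013/1013. Its 1013/1013 libraries were all below the WT libraries, the only such case among the members (3.63% of all genes, with 3.98% all above), and the log2 fold change was -0.15 (SE 0.18, adjusted p = 0.9997). Tpt1, the gene with the largest value in +/1013 SSCs, lay between 18.9 and 31.3 CPM over the 9 OPC libraries. Eef2 varied most in WT, at 1187, 1034 and 648 CPM, and its lowest value came from the OPC WT library with the high leukocyte markers.

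Across the 10 genes, log2 fold changes in OPCs ran from -0.39 (Fau, SE 0.44) to 0.14 in +/1013 and from -0.18 to 0.28 in 1013/1013, both against WT. Medians were -0.08 and -0.09, and those of all genes were 0.00 and 0.01. By edgeR's quasi-likelihood test 0 of 10 passed in +/1013 (0% of all 16207 genes), in 1013/1013 (0% higher, 0.00617% lower) and between the mutants (0%), and 0 of 10 had an unadjusted p under 0.05 in any of these comparisons. At that level 1.01% of all genes were higher and 1.04% lower in +/1013, 1.86% and 1.52% in 1013/1013, and 1.70% and 1.47% between the mutants. No member had all +/1013 libraries above or below WT (2.82% and 2.46% of all genes). DESeq2 also called 0 of 10 in each. Fau was higher in all 1013/1013 than in all +/1013 libraries (3.54% of all genes, with 3.79% lower), by 0.30 (95% interval -0.56 to 1.16).

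The effect of the genotype was larger in SSCs than in OPCs for all 10 genes in the values, and for Eef1a1 in 1013/1013 by the test. The difference of the 2 log2 fold changes of Eef1a1 was 1.60 (SE 0.27, adjusted p = 0.0334), against 0.119% of all genes that passed as higher. The other 9 genes had differences of 0.59 to 1.48 in 1013/1013, and none passed. In +/1013 the differences ran from 0.21 for Pabpc1 to 1.66 for Tpt1, and 0 of 10 passed (0.0692% of all genes), with Eef1a1 at 1.43 (SE 0.25, adjusted p = 0.0629). At an unadjusted p under 0.05, 8 of 10 genes were higher in each (4.60% and 5.90% of all genes, with 6.04% and 9.11% lower). The call of Eef1a1 was lost when any of 8 of the 11 libraries concerned was left out, with adjusted p-values up to 0.161. It was kept without OPC WT replicate 1 (adjusted p = 0.0481), SSC WT replicate 3 (adjusted p = 0.0436) or SSC 1013/1013 replicate 2 (adjusted p = 0.00508), and in the last case 3 of 10 members passed (1.60% of all genes higher, 7.12% lower). DESeq2's Wald test called 5 of 10 in +/1013 (0.959% of all genes) and 6 of 10 in 1013/1013 (2.37%). The call of Eef1a1 was also lost without a filter on low counts (adjusted p = 0.0919) and with the replicate number as a block (difference 1.63, adjusted p = 0.0772).

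Between SSCs and OPCs the members moved in both directions. Fau, Tpt1, Naca and Btf3 were higher in SSCs than in OPCs in all 3 genotypes, while Eef2 and Eef1b2 were lower in the values in all 3. In WT, Fau stood at 20.5, 19.5 and 19.2 CPM in SSCs against 2.19, 2.79 and 3.33 in OPCs, and the log2 fold change was 2.83 (SE 0.22, adjusted p = 3.2e-06). Tpt1 was 2.23 higher (SE 0.25, adjusted p = 9.8e-05), Naca 1.74 (SE 0.17, adjusted p = 3.2e-05) and Btf3 1.37 (SE 0.19, adjusted p = 5.0e-04). None of the SSC libraries overlapped an OPC library for these 4 genes.

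In the other direction, Eef2 stood at 298, 388 and 372 CPM in WT SSCs against 1187, 1034 and 648 in WT OPCs, a log2 fold change of -1.44 (SE 0.22, adjusted p = 0.00119). Eef1b2 was at 38.9, 39.8 and 39.1 CPM against 77.8, 93.7 and 120, with -1.31 (SE 0.19, adjusted p = 8.7e-04). Pabpc1 was lower by the test too, with -0.74 (SE 0.21, adjusted p = 0.0379), but that call was lost without the filter on low counts (adjusted p = 0.0823) and when any of 5 of the 6 libraries was left out. Eef1g (0.56) and Npm1 (0.62) were above and Eef1a1 (-0.36) below the OPC level without passing. In all, 4 genes were called higher and 3 lower in WT, where 5.55% of all 20238 genes were called higher and 5.86% lower. The populations did not overlap for any of the 10 genes, with 6 higher (22.2% of all genes) and 4 lower (15.7%). Without OPC WT replicate 3, the library with the high leukocyte markers, Pabpc1 stood at -0.78 and its call was lost (adjusted p = 0.0678 by edgeR). Without SSC WT replicate 3 it stood at -0.91 and the call was kept (adjusted p = 0.0305). No other member's call in WT was lost in either fit.

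In +/1013, 7 of 10 genes were called higher in SSCs and 1 lower, where 6.44% and 6.02% of all genes were. In 1013/1013, 7 were called higher and 0 lower (6.94% and 6.12% of all genes). All SSC libraries were above all OPC libraries for 7 members in +/1013 (18.1% of all genes) and for 7 in 1013/1013 (18.4%). They were all below for 1 member, Eef2, in 1013/1013 (21.8%) and for Eef1b2, Eef2 and Pabpc1 in +/1013, where this held for 3450 of all 20238 genes. The difference of Fau reached 4.23 in +/1013 (SE 0.23) and 3.91 in 1013/1013 (SE 0.24), that of Tpt1 3.88 and 3.71, that of Naca 2.85 and 2.91 and that of Btf3 2.46 and 2.40. Npm1 (1.45 and 1.21), Eef1g (1.26 and 1.34) and Eef1a1 (1.07 and 1.24) were called higher in the mutants. Eef2 was called lower in +/1013, at -0.83 (SE 0.22, adjusted p = 0.0252), and stood at -0.54 in 1013/1013 (adjusted p = 0.175). Eef1b2 stood at -0.38 and -0.19 and Pabpc1 at -0.53 and -0.10, and neither passed in the mutants. The call of Eef2 in +/1013 was lost when any of 4 of the 6 libraries was left out, with adjusted p-values of 0.0539 to 0.0952, and that of Npm1 in 1013/1013 was lost without SSC 1013/1013 replicate 1 (adjusted p = 0.0611).

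The members' order in this comparison ran with transcript length and with the share of sequence found in other genes. Over the 10 genes, the rank correlation of the log2 fold change with transcript length was -0.94 in WT, -0.95 in +/1013 and -0.90 in 1013/1013, and with the share of 50-base stretches found in other genes it was 0.75, 0.72 and 0.83. These describe 10 genes measured in the same libraries. For protein-coding genes other than these and the ribosomal protein genes, the rank correlation with length was 0.12, -0.12 and -0.11 and with the shared percentage 0.04, 0.07 and 0.07. Genes of that set with 50% or more shared stretches had a median of 0.60 in WT, against 0.03 for those with none. The part of length or shared sequence in the members' differences was not tested.

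Counts of annotated pseudogenes that share 50-base stretches with a member were taken as a share of the member's own counts. This share was larger in every OPC than in every SSC library for Fau, Btf3, Eef1g, Eef1a1, Tpt1 and Naca. The share depends on the member's own counts too, so by itself it does not show whether pseudogenes took more reads in OPCs. For Eef1a1 in WT, the share was lower in SSCs although its own level was also lower there. That level was 501 to 702 CPM in WT SSCs and 748 to 761 in WT OPCs. The pseudogene of Fau held counts equal to 32.1% to 54.7% of those of Fau in OPCs and 3.47% to 5.59% in SSCs. For Btf3 this was 7.61% to 10.6% against 1.29% to 2.22%, and for Eef1g 5.14% to 8.03% against 1.14% to 1.97%. The gap was narrower for Eef1a1 (1.48% to 2.30% against 0.790% to 1.42%), Tpt1 (2.94% to 4.15% against 2.03% to 2.88%) and Naca (2.40% to 4.52% against 1.12% to 1.67%). For Eef1b2 the share was lower in OPCs, at 0.0754% to 0.243% against 0.197% to 0.646%, with overlapping ranges. With the pseudogene counts added, the WT difference of Fau was 2.45, that of Btf3 1.28 and that of Naca 1.72. This way of counting was added after the data were seen. Reads that did not map uniquely were 7.75% to 10.4% in OPC and 5.10% to 8.56% in SSC libraries, and their part in the members' values was not tested.

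**Figure D3:**
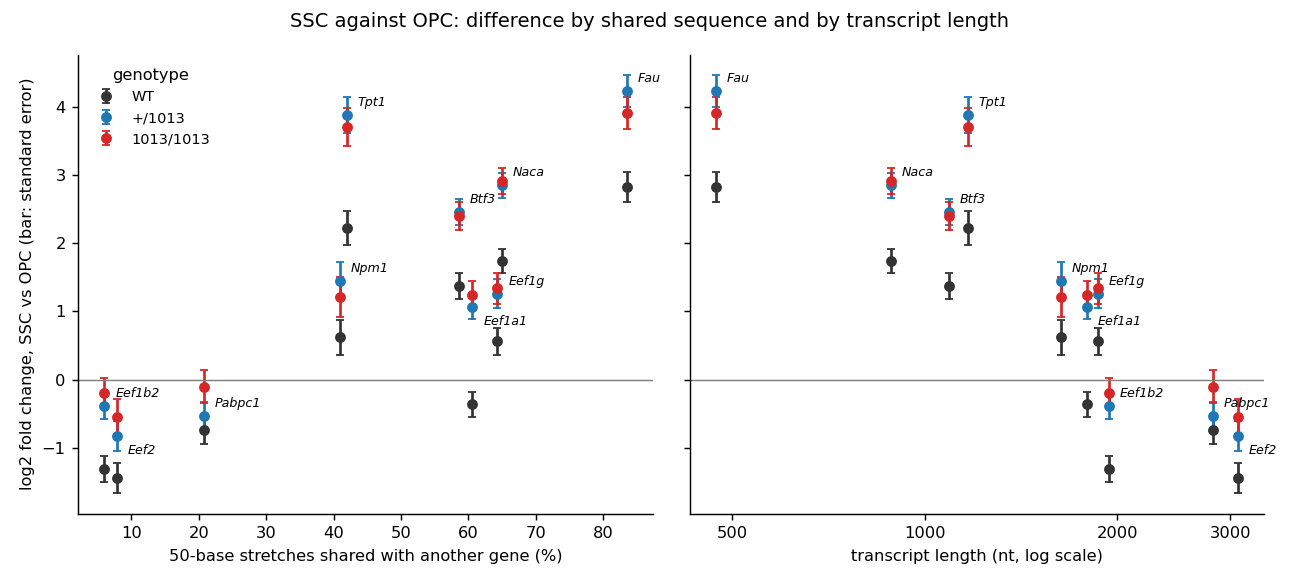
Log2 fold change of SSC against OPC for each gene, plotted against the share of its 50-base stretches found in another gene (left, %) and its transcript length (right, nt, log axis), with colours for the genotype and bars for standard errors. Fau, with the shortest transcript, lies highest, and Eef2, with the longest, lowest in each genotype.

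Transcript length also moved with the genotype in SSCs. Among protein-coding genes other than the members and ribosomal protein genes, the median log2 fold change of 1013/1013 against WT was 0.54 for transcripts under 1000 nt, 0.20 from 1000 to under 2000 nt, -0.23 from 2000 to under 4000 nt and -0.66 for 4000 nt or more. In +/1013 the medians were 0.50, 0.20, -0.09 and -0.52. The members' medians of 0.98 and 0.99 were above those of each class. In the class of 2000 to under 4000 nt, Eef2 (3089 nt) stood at 0.74 in +/1013 and 0.98 in 1013/1013, and Pabpc1 (2817 nt) at 0.09 and 0.76. Over the 10 genes the rank correlation of the log2 fold change with transcript length was -0.66 in +/1013 and -0.53 in 1013/1013. For the protein-coding genes other than the members and ribosomal protein genes it was -0.33 and -0.30. As a measure per library, the median log2 level of transcripts of 4000 nt or more was subtracted from that of transcripts under 1000 nt. Protein-coding genes averaging 10 CPM or more were used, with members and ribosomal protein genes left out of the short class. The measure was -0.55 to -0.10 in SSC WT libraries and 0.35 to 0.88 in the SSC mutant libraries. In OPC libraries it was -0.33 to 0.69, with the highest value in OPC WT replicate 3. The part of transcript length in the members' values was not tested.

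**Figure D4:**
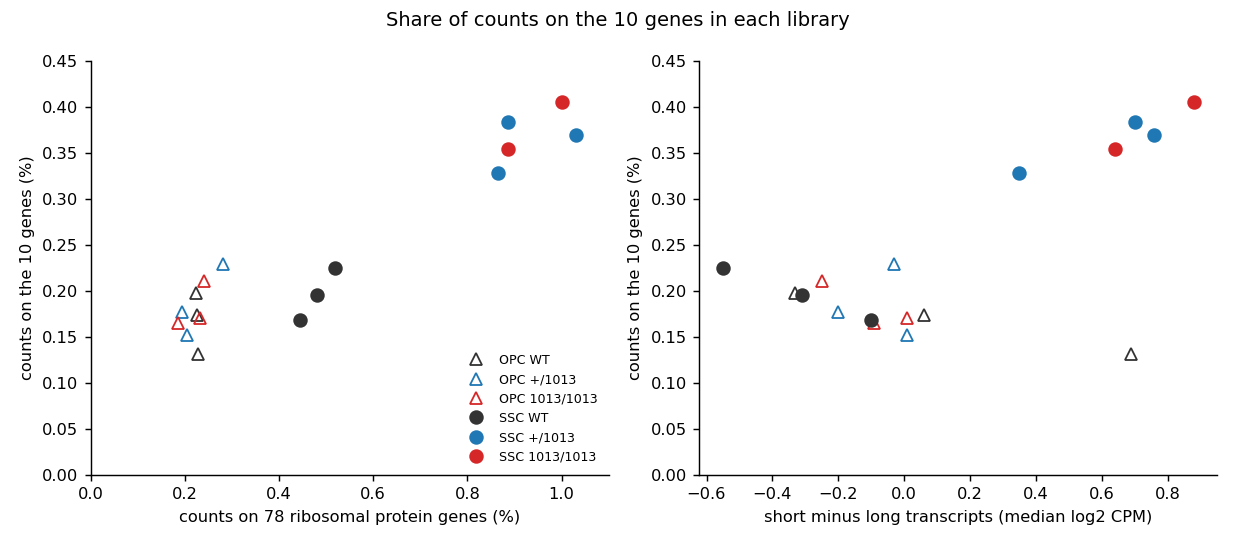
Share of gene counts on the 10 genes in each library (%) against the share on 78 ribosomal protein genes (left, %) and against the median log2 CPM of short minus long transcripts (right, under 1000 nt and 4000 nt or more). Filled circles are SSC and open triangles OPC libraries. The 5 SSC mutant libraries lie apart from the others, at 0.328% to 0.406%.

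Ribosomal protein genes, which belong to the same mRNA class, also had higher levels in mutant SSCs. In +/1013 SSCs 12 of the 78 were called higher, where 12 of all 17659 genes (0.0680%) were, and 0 lower (0.00566% of all genes). The median log2 fold change of the 78 was 1.16, with values from -0.93 (Rps10) to 1.66 (Rpl37a). In 1013/1013 SSCs 0 were called by edgeR (0% of all genes), and the median was 1.22. At an unadjusted p under 0.05 by edgeR, 74 were higher (8.37% of all genes). Every mutant library was above every WT library for 75 of 78 (16.4%). Against OPCs, the ribosomal median in SSCs was 1.77 in WT, 2.99 in +/1013 and 3.06 in 1013/1013, and the members' medians were 0.59, 1.36 and 1.29. The counts called higher were 47, 69 and 68 of 78 (5.55%, 6.44% and 6.94% of all genes). Those called lower were 9, 1 and 0 (5.86%, 6.02% and 6.12%). The genotype effect was called higher in SSCs than in OPCs for 13 of the 78 in +/1013 (0.0692% of all genes) and 18 in 1013/1013 (0.119%).

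The other genes of the class on a hand-made list, 9 in number, had a median of 0.89 in +/1013 and 0.87 in 1013/1013 SSCs against WT, and 0 were called in either. The 34 initiation factor genes had medians of 0.48 and 0.40, the 17 tested further elongation and release factor genes 0.19 and 0.01, the 16 tested partners and paralogs of the members 0.24 and 0.17, and the 9 mitochondrial translation genes 0.47 and 0.24, and 0 were called in any. At an unadjusted p under 0.05 by edgeR, 8 of the 9 class genes were higher in each mutant, and 13 and 9 of the initiation factor genes were. Of all genes, 7.65% and 8.37% were higher at that level. Among 17 tested regulators of the class, which include Mtor and Larp1, 8 were above and 9 below the WT level in +/1013 SSCs, with a median of -0.31. At that unadjusted level 2 were higher and 2 lower, and 0 were called by edgeR. Between WT SSCs and OPCs, where 5.55% of all genes were called higher and 5.86% lower, 3 of the 9 other genes of the class were called higher and 5 lower. Of the 34 initiation factor genes 3 were called higher and 12 lower. Of the further elongation factors 0 were called higher and 3 lower, of the partners and paralogs 1 and 3, of the mitochondrial genes 1 and 1, and of the regulators 0 and 0. Eif4a1, the RNA helicase of initiation, was 3.19 higher in WT SSCs (SE 0.26, adjusted p = 4.5e-06), Hnrnpa1 3.22 higher (SE 0.38, adjusted p = 1.4e-04) and Tufm, the mitochondrial elongation factor, 1.52 higher (SE 0.25, adjusted p = 0.00190). Those 3 have 65.3%, 46.4% and 74.0% of stretches shared with other genes. Rack1, a ribosome-bound scaffold, stood at -1.66 (SE 0.19, adjusted p = 1.3e-04), Eif3i -1.37 (SE 0.14, adjusted p = 3.8e-05) and Eif3l -1.21 (SE 0.15, adjusted p = 2.2e-04), and their shared percentages were 0.9%, 0.8% and 0.0%.

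In the mutants, Eif4a1 and Tufm were again called higher (3.44 and 3.35, and 2.19 and 2.25), Nap1l1 was at 1.68 and 1.64, and Eif4g2 was lower, at -1.48 and -1.62. Pelo, a rescue factor of stalled ribosomes with means under 4 CPM in every group compared, was at -2.21 and -3.50, Gspt1 was called lower in +/1013 at -0.96, and Eif3d was called lower in 1013/1013 at -1.09. Eif3i encodes a subunit of the initiation factor that binds the small ribosomal subunit. It was the only gene of these lists whose genotype effect was called different between the populations. The difference was 1.14 in +/1013 (adjusted p = 0.0463) and 1.26 in 1013/1013 (adjusted p = 0.0297), where 0.0692% and 0.119% of all genes were called higher. At an unadjusted p under 0.05 by edgeR, 7 of the 9 other class genes were higher in each mutant and 0 lower. Of the 34 initiation factor genes 8 were higher and 1 lower. Of all genes, 4.60% and 5.90% were higher and 6.04% and 9.11% lower.

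Over the 17 libraries, the mean log2 CPM of the 10 genes was most like that of Rps3a1 (Pearson r = 0.986), Rpl14 (0.985), Rpl7 (0.984), Rps24 (0.983) and Nap1l1 (0.980). The ranking was over 8274 genes that averaged 10 CPM or more. Among the first 50 genes were 24 ribosomal protein genes. The members' mean log2 CPM was 5.64 to 5.90 in OPC libraries, 6.32 to 6.43 in SSC WT libraries and 7.11 to 7.47 in SSC mutant libraries. The correlations therefore describe the split by cell type and, in SSCs, by genotype as well as any finer pattern. Among the 10 genes, the 45 pairwise correlations ran from -0.72 to 0.99 over the 17 libraries with a median of 0.64. For the deviations from the group means the median was 0.23, with a range of -0.73 to 0.77.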

How the data were processed

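Libraries were made by SMART-Seq v4 amplification and Nextera XT tagmentation from pools of sorted cells and sequenced paired-end. The authors removed reads under 50 bp, aligned the rest with STAR to mm10 and used HTSeq for counting. The deposited values are raw counts per gene. Versions, the annotation release, strand setting and treatment of multiply mapped reads are not given in the sources used here. HTSeq's summary lines were left out of library sizes.

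Counts of 55335 genes were filtered with filterByExpr, scaled by TMM and tested with edgeR 4.0.16 (R 4.3.3, quasi-likelihood F test). Calls needed a p under 0.05 after Benjamini-Hochberg adjustment over all tested genes and a change of at least 1.5-fold. Genotypes were compared in fits within a cell type, and SSCs with OPCs, or genotype effects between them, in a fit of all 17 libraries. P-values are two-sided. Standard errors were derived from the F statistic, and 95% intervals are 1.96 standard errors on either side. That multiplier makes no allowance for the few libraries, so the intervals are narrower than the test implies. For Eef1a1 in WT SSCs against OPCs the interval was -0.71 to -0.01, with an unadjusted p of 0.0647 by edgeR. Displayed levels are CPM on TMM library sizes, divided by transcript length in kb where genes are compared. Transcript lengths and shared 50-base stretches came from GENCODE M21. Each library pooled mice, so p-values measure the spread between pools, and no replicates were duplicates of each other. Alternatives included DESeq2 1.42.0, other normalizations and filters, a replicate block and leaving out each library. Tests were tried first on simulated data whose spread followed the trend over genes. Of 100 genes changed 2-fold, 1 passed in 1013/1013 against WT SSCs, 3 in 1013/1013 against WT OPCs and 5 between WT SSCs and OPCs. Of 100 genes changed 4-fold, 45, 50 and 45 passed. A missing call for a change near 2-fold therefore does not show that there was no change. The named genes were the members, at most 3 called genes in each direction and comparison with the smallest adjusted p over the translation gene lists together, and the 5 genes most like the members' mean. Members and gene lists were chosen with earlier results of these data known.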

Additional observations from a re-analysis of the deposited data

Results flagged for a closer look

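The effect of 1013/1013 on Eef1a1 differed between the cell types by the test of the difference itself, at 1.60 on the log2 scale (SE 0.27, 95% interval 1.08 to 2.12, adjusted p = 0.0334 by edgeR). The level of Eef1a1 in SSCs was 2.76-fold of WT in 1013/1013, and in OPCs 0.902-fold. The call was lost with the replicate number as a block (adjusted p = 0.0772), without a filter on low counts (adjusted p = 0.0919) and in 8 of 11 fits that left out a library, where adjusted p-values reached 0.161.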

How the results depend on the processing

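Of 1850 recomputed values, 1725 kept their direction and their side of the threshold. In +/1013 against WT SSCs, 0 members were called, but 1 was called higher with at least 10 counts in every library (0.474% of all genes). DESeq2's Wald test called 7 higher (2.88% of all genes), and a fit of all 17 libraries 5 (0.509%). In 1013/1013 against WT SSCs, these were 7 by DESeq2 (3.93% of all genes) and 5 in the fit of all libraries (0.677%). For the genotype effect in SSCs minus OPCs, DESeq2 called 5 in +/1013 (0.959% of all genes) and 6 in 1013/1013 (2.37%). In 1013/1013, 0 were called without a filter and 0 to 3 with a library left out. The 3 came from the fit without SSC 1013/1013 replicate 2, which left that group with 1 library. The shares of all genes without a filter and in the other fits with a library left out are not given here. The causes were not tested. Replicate numbers are shared between groups. Deviations of same-numbered libraries correlated at r of -0.23 to 0.27 in OPCs and -0.08 to 0.10 in SSCs. Across cell types r was 0.08, 0.16 and 0.27 in WT, the last between the WT libraries with high leukocyte markers, and -0.02 to 0.04 in the mutants. Since not every pair exceeded 0.1, the numbers were not taken as pairs. With the replicate block, 0 members were called for the 1013/1013 effect in SSCs minus OPCs (Eef1a1 at 1.63, adjusted p = 0.0772), and 6 between SSCs and OPCs in WT (Pabpc1 adjusted p = 0.0559). The shares of all genes with the block are not given here.

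Values near 0 changed sign. For 1013/1013 against +/1013 OPCs, Eef1g was 0.00 without Col1a1 and Col1a2 in the normalization and in a fit of both groups alone, Tpt1 was -0.02 with upper-quartile normalization and 0.00 with the block, and Btf3 was 0.00 with DESeq2 size factors, by DESeq2's test and in a fit of both groups alone, and 0.01 without Col1a1 and Col1a2. For the same contrast in SSCs, Fau was 0.00 with at least 10 counts and in a fit of both groups alone, -0.01 with the block and -0.02 in the fit of all libraries.

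With a library left out, values for +/1013 against WT OPCs were -0.06 to 0.04 for Eef1a1, -0.22 to 0.09 for Eef1b2, -0.18 to 0.02 for Eef1g, -0.08 to 0.33 for Eef2, -0.20 to 0.02 for Tpt1, -0.20 to 0.13 for Btf3 and -0.19 to 0.01 for Pabpc1. For 1013/1013 against WT OPCs they were -0.34 to 0.01 for Eef1b2, -0.35 to 0.04 for Eef1g, -0.15 to 0.24 for Eef2, -0.20 to 0.05 for Tpt1, -0.22 to 0.12 for Btf3, -0.02 to 0.20 for Pabpc1 and -0.24 to 0.06 for Fau. Between mutant OPCs they were -0.25 to 0.03 for Eef1b2, -0.27 to 0.10 for Eef1g, -0.09 to 0.15 for Tpt1 and -0.10 to 0.07 for Naca and for Btf3. In SSCs, Pabpc1 in +/1013 against WT was 0.00 to 0.28, and between the mutants values were -0.06 to 0.15 for Eef1a1, -0.05 to 0.18 for Eef1g, -0.45 to 0.13 for Tpt1, -0.09 to 0.16 for Naca, -0.23 to 0.08 for Btf3, -0.32 to 0.26 for Npm1 and -0.17 to 0.12 for Fau. For 1013/1013 SSCs against OPCs they were -0.29 to 0.01 for Eef1b2 and -0.48 to 0.26 for Pabpc1.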
